A study of Mus musculus with 31 samples.

Results

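The genes described here encode the proteins of the mitochondrial ribosome. They were chosen by name: every probe set whose single gene symbol in the array annotation begins with Mrpl or Mrps followed by a digit was taken, which gave 76 genes read by 156 probe sets, out of 18193 genes with a probe set of their own and 45037 probe sets in all. The rule itself uses no measured value, but this gene family was proposed with earlier results of these data known. A further 4 probe sets list such a symbol together with another gene and were not taken. The study asked what β-catenin signaling and Myc do in the basal cell layer of the mouse mammary gland, and 31 Affymetrix arrays were made, in 6 groups. Mammary tissue came from control mice (n = 4) and from K5ΔNβcat mice, in which the keratin 5 promoter drives an N-terminally truncated, stabilized β-catenin in basal cells, as small hyperplasias (n = 5), large hyperplasias (n = 5) and tumors (n = 11). Basal cells were sorted from control mice (n = 3) and from K5creMycL/L mice (n = 3), in which Cre driven by the keratin 5 promoter deletes Myc in basal cells. According to the methods, each sorted sample was a pool of several mice. The labels give the strain as C57BL6 for all samples, whereas the methods give a mixed 129SV/C57BL6 background, and the labels give no age and name no β-catenin transgene in the sorted samples. The labels do not say whether the tissue samples of a group came from separate animals, so a p-value here reflects the spread between samples, which may be technical.

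Mitochondria carry a small genome of their own that encodes a few core subunits of the respiratory chain, and the mitochondrial ribosome is the machine that translates them. All of its proteins are encoded in the nucleus, made in the cytosol and imported, and they assemble with mitochondrial ribosomal RNA into a small subunit that reads the messenger and a large subunit that forms the peptide bonds. Some of these proteins descend from those of the bacterial ribosome, and others were added during evolution. Of the members, 28 belong to the large subunit and have bacterial homologs, 21 are other proteins of the large subunit, 15 are small-subunit proteins with bacterial homologs and 11 are other small-subunit proteins. Symbols do not always tell the subunit: Mrps30 and Mrps18a are proteins of the large subunit. The remaining member, Mrps36, is not a ribosomal protein but a component of the 2-oxoglutarate dehydrogenase complex. Myc is a transcription factor that binds, with Max, the E-box CACGTG, and genes of mitochondrial biogenesis are known to carry sites for nuclear respiratory factor 1 (NRF1) and for Ets factors such as GABP.

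The members are spread over 17 chromosomes, and 67 of 76 have a RefSeq promoter window (GRCm38.p6), running from 250 bases before to 50 bases after the gene start. These windows were searched on both strands for exact letters. The E-box CACGTG was found in the windows of 5 members (7.46%), against 8.91% of all coding genes with a window. The consensus site of NRF1 was found in 3 members (4.48%, against 1.47% of coding genes), and the Ets site CCGGAAG in 25 members (37.3%, against 12.9%). These shares are descriptions with no test, and the median G and C content of member windows was 58.7%, against 56.3% for coding genes. The stretches around all E-boxes and NRF1 sites are shown, since the E-box is the site that Myc binds, with 1 of the 2 Ets sites (here on the opposite strand, CTTCCGG) in the windows of the members with the largest downward difference in Myc-deficient cells, Mrps16, and the largest rise in tumors, Mrpl52. Capitals mark the site, and each sequence is from RefSeq, 5′ to 3′ on the strand of the gene.
Mrpl20, chr4:155802820-155802875, plus strand: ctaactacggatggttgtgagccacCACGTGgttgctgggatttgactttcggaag
Mrpl36, chr13:73330941-73330996, plus strand: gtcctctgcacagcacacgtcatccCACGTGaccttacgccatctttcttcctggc
Mrpl37, chr4:107066998-107067053, minus strand: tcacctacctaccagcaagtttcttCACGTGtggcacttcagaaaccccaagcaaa
Mrpl2, chr17:46646065-46646120, plus strand: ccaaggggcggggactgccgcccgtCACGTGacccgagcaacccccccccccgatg
Mrps18c, chr5:100798571-100798626, plus strand: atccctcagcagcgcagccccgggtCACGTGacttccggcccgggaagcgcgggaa
Mrpl9, chr3:94443283-94443335, plus strand: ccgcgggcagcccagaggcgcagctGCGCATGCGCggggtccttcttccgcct
Mrpl32, chr13:14613090-14613149, minus strand: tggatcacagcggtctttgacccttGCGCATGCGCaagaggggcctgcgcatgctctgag
Mrpl39, chr16:84735335-84735394, minus strand: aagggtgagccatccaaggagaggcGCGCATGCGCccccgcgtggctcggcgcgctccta
Mrps16, chr14:20393533-20393589, minus strand: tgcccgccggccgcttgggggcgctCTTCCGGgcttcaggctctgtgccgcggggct
Mrpl52, chr14:54426837-54426893, plus strand: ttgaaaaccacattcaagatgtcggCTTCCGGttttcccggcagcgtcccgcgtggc

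Values are MAS5 signals, the brightness of a probe set scaled between arrays. Each gene is given by its brightest probe set, and signals of different genes are not set against each other. That probe set was picked separately for sorted cells and for tissue. It differed between them for 13 members, among them Mrpl13, Mrps5 and Mrps2. Sorted and tissue samples were labelled with different kits and were never compared with each other. The median signal of an array was 13.2 to 19.7 in sorted cells and 23.9 to 32.9 in tissue. Arrays of sorted cells were less alike within a group (mean Spearman correlation with their own group 0.844 to 0.869) than those of tissue (0.905 to 0.960). All differences below are of log2(signal + 16), which understates the change of dim genes, and they were tested by limma across all probe sets with a median of at least 30 in either group (the background signal set by the methods), with Benjamini-Hochberg adjustment and a threshold of 0.05. In these bulk samples fewer cells of a type and less RNA per cell cannot be told apart.

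The comparison of sorted basal cells asks what the loss of Myc does to these genes in normal basal cells. Myc itself had signals of 1479, 1677 and 1870 in the control pools and of 141, 428 and 42.3 in Myc-deficient pools 1, 2 and 3, so that every Myc-deficient pool lay below every control pool. Whether its probe set lies in the deleted part of the gene is not stated in the labels or methods. Most members lay lower in the Myc-deficient cells, but none passed the test. Of 76 members, 72 were bright enough to test. The log2 difference was below 0 for 64 of them and above 0 for 8, with a median of -0.44, while over all 9512 genes tested 53% lay below 0 and the median was -0.03. A difference below -0.5 was measured for 29 members, against 16.9% of all genes, and above 0.5 for none, against 10.9%. No member was called, and neither was any other gene (0%). At an unadjusted p under 0.05, limma found 7 members lower and 0 higher, where 4.53% of all genes were lower and 2.69% higher. Pools of the same number deviated together. With the pool number as a block, 14 members were lower (7.04% of all genes) and 1 higher (550 of all 9512 genes) at that unadjusted p, with none called. The pools of both groups did not overlap for 9 members that were lower (7.18% of all genes) and for 2 that were higher (5.75%). The signal median fell more than 2-fold for 17 members (9.33% of all genes) and rose as much for 0 (5.6%), as a description.

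The Myc-deficient pools were not alike. The mean level of the 72 members, relative to the control mean on the log2 scale, was -0.09, 0.06 and 0.02 in the control pools and -0.62, -0.71 and -0.03 in Myc-deficient pools 1, 2 and 3. Pool 3, which had the lowest Myc signal, held the members at the control level, and the pool with the most Myc left, pool 2, held them lowest. Without pool 3 the median difference was -0.70, 46 of 71 members lay below -0.5 (22.2% of all genes) and 21 were lower at an unadjusted p under 0.05 (7.18% of all genes), and limma still called no member. Without pool 2 the median was -0.28, 22 of 72 members lay below -0.5 (14.2% of all genes) and 4 were lower at that unadjusted p (2.9% of all genes). The share of members below 0 stayed between 81.9% and 90.1% whichever pool was left out, counts that were added after the data had been seen. Of 5 proliferation genes on the array, the mean level was -2.07, -1.37 and -0.41 in the same 3 pools and -0.08, 0.47 and -0.39 in the controls, so that pool 3 was also the pool nearest to the controls there. The part of proliferation in the member levels was not tested.

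**Figure D1:**
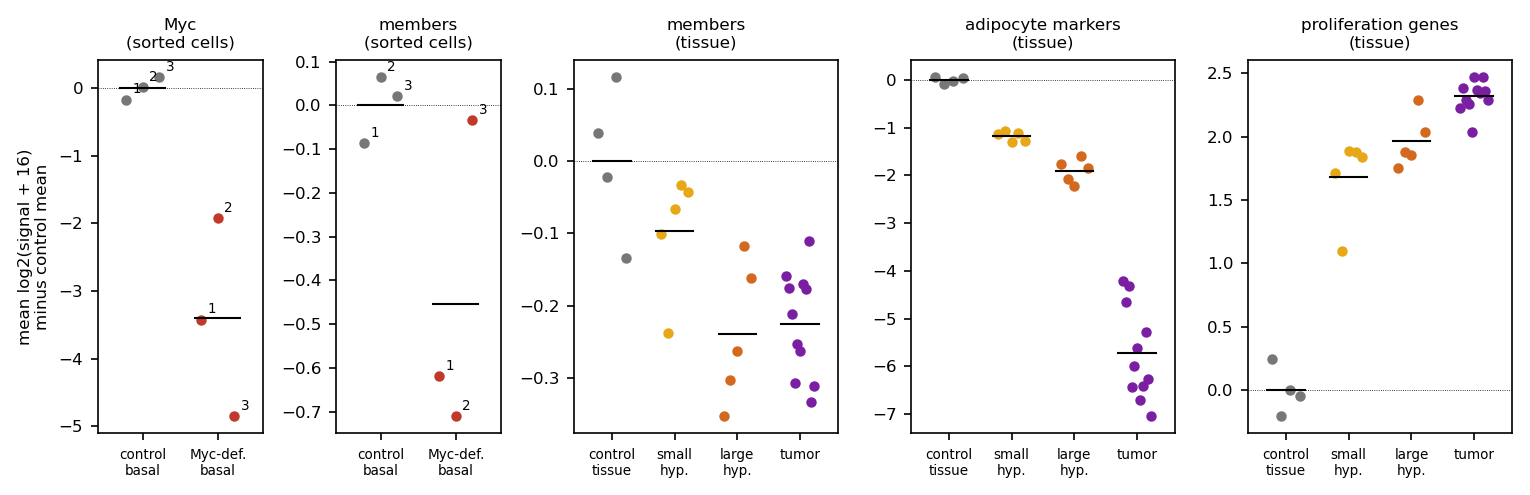
Mean level of Myc, of the members and of marker lists in each array, as log2(signal + 16) minus the mean of the control arrays; each point is 1 array, bars are group means, and digits name the sorted pools. Myc was low in all 3 Myc-deficient pools, but the members were low in pools 1 and 2 (-0.62 and -0.71) and near the controls in pool 3 (-0.03), while in tissue the lowest member mean was -0.35 and the lowest adipocyte mean -7.05.

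The members with the largest downward differences came from both subunits. The SE and adjusted p printed for genes in sorted cells are from limma without the pool block. Mrps16, a small-subunit protein with a bacterial homolog, had signals of 66.0, 59.7 and 156 in control pools and 10.7, 7.51 and 78.3 in Myc-deficient pools, a log2 difference of -1.39 ± 0.57 (SE, adjusted p = 0.75) in limma. Pools 1 and 2 lay below all controls, at signals under the background, pool 3 lay within the range of the controls, and each Myc-deficient pool was below the control pool of the same number. Mrps30, a large-subunit protein despite its symbol, measured 154, 195 and 196 against 59.3, 49.3 and 78.8, a difference of -1.34 ± 0.37 (SE, adjusted p = 0.56) in limma. Here all 3 Myc-deficient pools were below all controls. Mrpl1, the protein of the stalk at the tRNA exit side of the large subunit, measured 92.0, 71.0 and 83.5 against 18.9, 17.6 and 35.2, again without overlap (-1.32, limma adjusted p = 0.62). Its signals in Myc-deficient pools 1 and 2 were under the background. Mrps33 of the small subunit measured 479, 337 and 599 against 179, 146 and 229.6, also without overlap (-1.26, limma adjusted p = 0.56). Mrpl13, a large-subunit protein with a bacterial homolog, measured 189.6, 171 and 270.1 against 54.5, 45.8 and 196, where each Myc-deficient pool was below the control pool of the same number (-1.19, limma adjusted p = 0.75).

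Few members leaned upward. Mrps6, a small-subunit protein with a bacterial homolog, measured 831, 887 and 1241 against 1322, 1422 and 1315, and all Myc-deficient pools lay above all controls (0.47 ± 0.24 SE, limma adjusted p = 0.8). Mrps7, which lies in the head of the small subunit, measured 192, 182 and 187 against 214, 204 and 229, also without overlap but by a small amount (0.19, limma adjusted p = 0.93). Mrpl55 (0.31), Mrpl43 (0.29) and Mrpl20 (0.26), all of the large subunit, had overlapping pools and did not pass the test in limma (lowest adjusted p = 0.91). Mrpl55 and Mrpl43 each had some signals under background in both groups. Among the 5 members with an E-box in the promoter window, the log2 difference was 0.26 for Mrpl20, 0.17 for Mrpl36, -0.39 for Mrpl37, -0.52 for Mrpl2 and -0.48 for Mrps18c, on both sides of 0. Some of these signals lay near background, with overlapping pools: Mrpl36 at 39.2, 47.1 and 15.4 against 34.4, 26.5 and 56.5, and Mrpl2 at 58.0, 116 and 27.5 against 27.4, 33.3 and 51.1. For the 3 members with an NRF1 site the log2 difference was -0.25 for Mrpl9, -0.11 for Mrpl32 and -1.09 for Mrpl39.

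**Figure D2:**
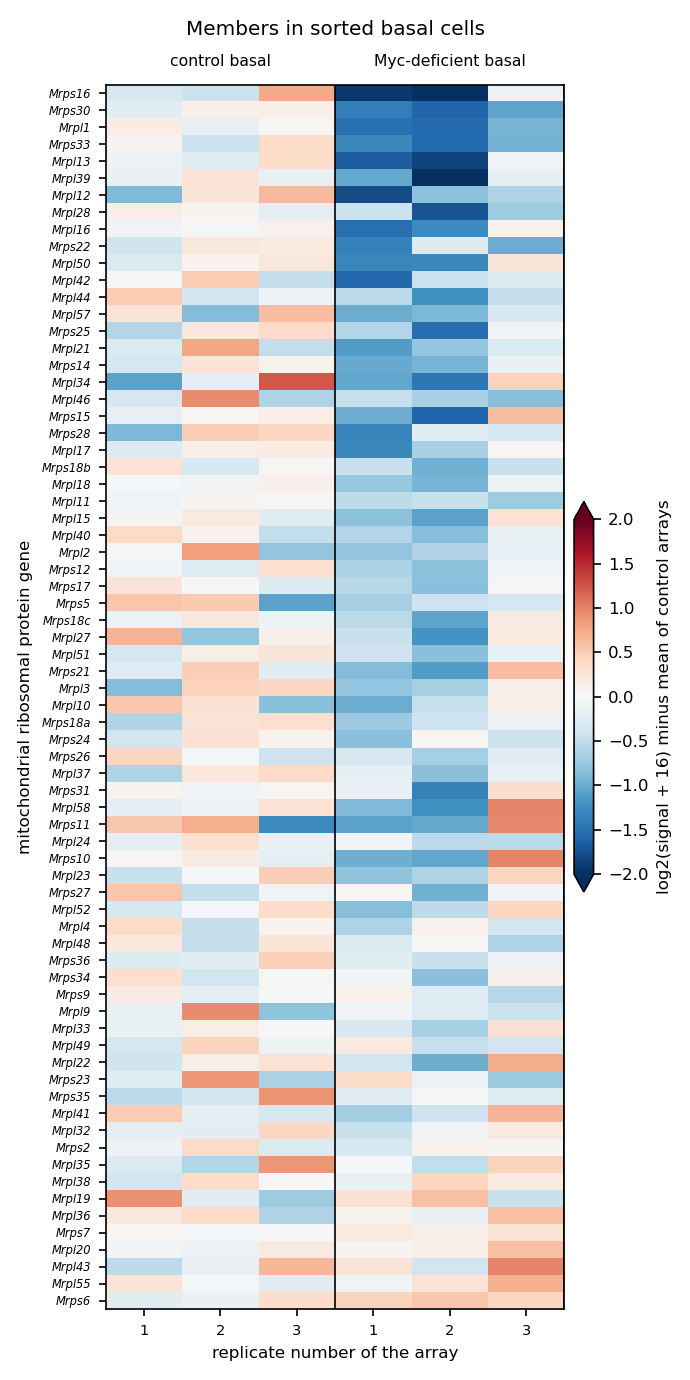
The 72 tested members in the 6 arrays of sorted basal cells, ordered by log2 difference; colour is log2(signal + 16) minus the mean of the control pools, from blue (lower) to red (higher). Blue fills most rows of Myc-deficient pools 1 and 2, whereas pool 3 is mixed, and the largest downward difference was -1.39 (Mrps16) and the largest upward 0.47 (Mrps6).

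The median difference was -0.44 over 45 tested large-subunit members and -0.43 over 26 small-subunit members, -0.46 and -0.45 for their bacterial homologs and -0.42 and -0.40 for the other proteins, and differences between these classes were not tested. The decoding-centre protein Mrps12 had a difference of -0.52, Mrps5 at the messenger entry -0.48, Mrps2 -0.06, Mrpl3 near the catalytic centre -0.44, and the stalk proteins Mrpl10 and Mrpl12 -0.44 and -1.08. Mrpl10 measured 111, 92.2 and 33.1 against 28.0, 47.9 and 80.6, and Mrpl12 29.9, 83.9 and 118 against 8.44, 31.9 and 39.7. Both had overlapping pools and some signals under background. The paralogs Mrps18a, Mrps18b and Mrps18c measured -0.42, -0.62 and -0.48, and Mrps34 and Mrpl41 -0.26 and -0.14. Mrps36, which is no ribosomal protein, lay at -0.27. Mrpl45, which binds near the exit of the nascent chain, was under background with Mrpl14, Mrpl47 and Mrpl54.

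No other gene of mitochondrial translation passed the test either. Of 9 translation factors tested, 8 lay below 0 with a median of -0.62, and the lowest were Tufm, the elongation factor that delivers tRNAs (mean signal 272 ± 63.0 in control and 94.4 ± 37.8 in Myc-deficient pools, SD, -1.41 on the log2 scale, limma adjusted p = 0.56), the peptide deformylase Pdf (-1.25) and the initiation factor Mtif2 (mean signal 96.6 and 40.3). All 3 had pools that did not overlap. Of 12 mitochondrial tRNA synthetases, 10 lay below 0 with a median of -0.42, and of 10 assembly and rRNA modification factors 7 did, with a median of -0.20. Of 8 genes of mitochondrial DNA maintenance and transcription, 6 lay below 0 with a median of -0.52, among them Tfam, which packages mitochondrial DNA (-0.67), and Ssbp1, which binds its single strands (-0.72). Polg2, the accessory subunit of the mitochondrial DNA polymerase, lay the other way, with a mean signal of 42.6 ± 37.6 in control and 138 ± 102 in Myc-deficient pools (SD, 1.39 on the log2 scale, limma adjusted p = 0.75), and its pools overlapped. The sorted pools of both groups carried basal markers (5 of 5 tested, summed signal 12319 to 18889, median difference 0.20). Luminal markers (6 of 6 tested, summed signal 3311 to 4755, median difference -0.24) and fibroblast markers (4 of 4 tested, 1435 to 2444, 0.24) were also bright enough to test. Of 6 adipocyte markers only Fabp4 was above background (difference 0.16), and the summed signal of the 6 was 1156 to 4277. Of 5 endothelial markers 3 were above background and of 5 leukocyte markers 2. The adipocyte marker Adipoq and the leukocyte marker Ptprc had mean signals of 3.14 and 6.91 in control pools and of 2.02 and 9.31 in Myc-deficient pools, all under background. The part of other cell types in the member differences was not tested.

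In tissue, the members were compared between lesions of K5ΔNβcat mice and control mammary tissue, and all 76 were bright enough to test. In tumors 41 members fell and 12 rose, and 23 did not pass the test. Calls were common in this comparison: 36.8% of all 11831 genes tested were called lower and 35% higher, so that members were called higher less often than the background and lower more often, as a description. The median difference of the members was -0.24 and that of all genes -0.02, and 57 members lay below 0 (51% of all genes). Large differences were less common among members than among all genes. A difference below -0.5 was measured for 15 of 76 members and 3157 of 11831 genes, and above 0.5 for 5 members and 3104 genes. The groups did not overlap for 22 members lower in tumors (23.7% of all genes) and for 6 higher (21.6%). Of 49 large-subunit members 27 fell and 10 rose, and of 26 small-subunit members 13 fell and 2 rose. Of the 15 small-subunit members with bacterial homologs none rose.

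Mrps6 showed the largest fall. Its signals were 982, 1062, 710.5 and 889.6 in control tissue, 559, 650.0, 659, 625 and 515 in small hyperplasias, 316, 330.4, 315, 461 and 360.4 in large hyperplasias and 176 at the lowest, 228 at the median and 383 at the highest in tumors. No small or large hyperplasia or tumor reached the lowest control, and tumors 1 and 3 (374 and 383) overlapped the large hyperplasias while the other 9 tumors (176 to 305) lay below them. The log2 difference from control tissue was -1.79 ± 0.15 (SE, adjusted p = 1.4e-10) in tumors, -1.31 ± 0.17 (SE, adjusted p = 1.4e-06) in large hyperplasias and -0.58 ± 0.17 (SE, adjusted p = 0.014) in small hyperplasias, in limma. The call in small hyperplasias was lost without control tissue 2 (limma adjusted p = 0.053). A dimmer probe set of the gene fell too, by 2.35 on the log2 scale in tumors. The locus of Mrps6 on chromosome 16 overlaps the coding gene Slc5a3, an inositol transporter gene, and which transcripts these probe sets read is not stated in the labels or methods.

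Mrps31 of the small subunit measured 209, 179.9, 222 and 148 in control tissue and 61.4 at the lowest, 78.7 at the median and 102 at the highest in tumors, with no overlap (-1.06 ± 0.11 SE, limma adjusted p = 3.1e-09). Mrpl10, which anchors the stalk of the large subunit, measured 415, 500.2, 411 and 374 in control tissue and 209.9 at the lowest, 218 at the median and 249 at the highest in tumors (-0.88 ± 0.08 SE, limma adjusted p = 1.4e-09). It was already at 236 to 271 in large hyperplasias. Mrpl16, a large-subunit protein with a bacterial homolog, measured 542, 475, 506 and 421 in control tissue and 224 at the lowest, 253 at the median and 292 at the highest in tumors (-0.88 ± 0.10 SE, limma adjusted p = 1.2e-08). Mrps30 measured 326, 161, 236 and 284 in control tissue and 104 at the lowest, 131 at the median and 146 at the highest in tumors (-0.87 ± 0.12 SE, limma adjusted p = 4.4e-07), and its control samples were the most scattered of these genes. All 11 tumors lay below all 4 controls for each of these members.

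The members that rose in tumors came mostly from the large subunit. Mrpl52 measured 470.2, 494, 515 and 451 in control tissue, 659, 598, 628, 644 and 738 in small hyperplasias, 589, 593, 618, 596 and 666 in large hyperplasias and 698 at the lowest, 815 at the median and 889 at the highest in tumors. Every lesion lay above every control, and every tumor above every large hyperplasia. The difference from control tissue was 0.70 ± 0.07 (SE, adjusted p = 1.4e-09) in tumors, 0.33 ± 0.08 (SE, adjusted p = 0.001) in large hyperplasias and 0.42 ± 0.08 (SE, adjusted p = 2.2e-04) in small hyperplasias, in limma. Mrpl33, a small bacterial-type protein of the large subunit, measured 159, 111, 130.0 and 190.1 in control tissue and 199.9 at the lowest, 234 at the median and 376 at the highest in tumors (0.67 ± 0.18 SE, limma adjusted p = 0.0023). It varied widely among small hyperplasias, from 149 to 346. Mrps25 of the small subunit measured 151, 143, 151 and 121 in control tissue and 190.1 at the lowest, 227 at the median and 269.8 at the highest in tumors (0.62 ± 0.10 SE, limma adjusted p = 3.7e-06), and its large hyperplasias, at 116 to 172, still overlapped the controls.

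Mrpl54 (0.61, limma adjusted p = 1.5e-05), Mrpl21 (0.43, adjusted p = 4.7e-04) and Mrpl13 (0.39, adjusted p = 4.6e-05) also rose in tumors with no overlap, and Mrpl18 (0.50) and Mrpl19 (0.38) rose with overlapping groups. The rise of Mrps33 (0.26, limma adjusted p = 0.02) was lost without control tissue 4 (adjusted p = 0.23), and that of Mrpl51 (0.15, adjusted p = 0.045) without any of several arrays. Leaving out each array in turn kept 41 of the 53 calls throughout, 32 lower and 9 higher.

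**Figure D3:**
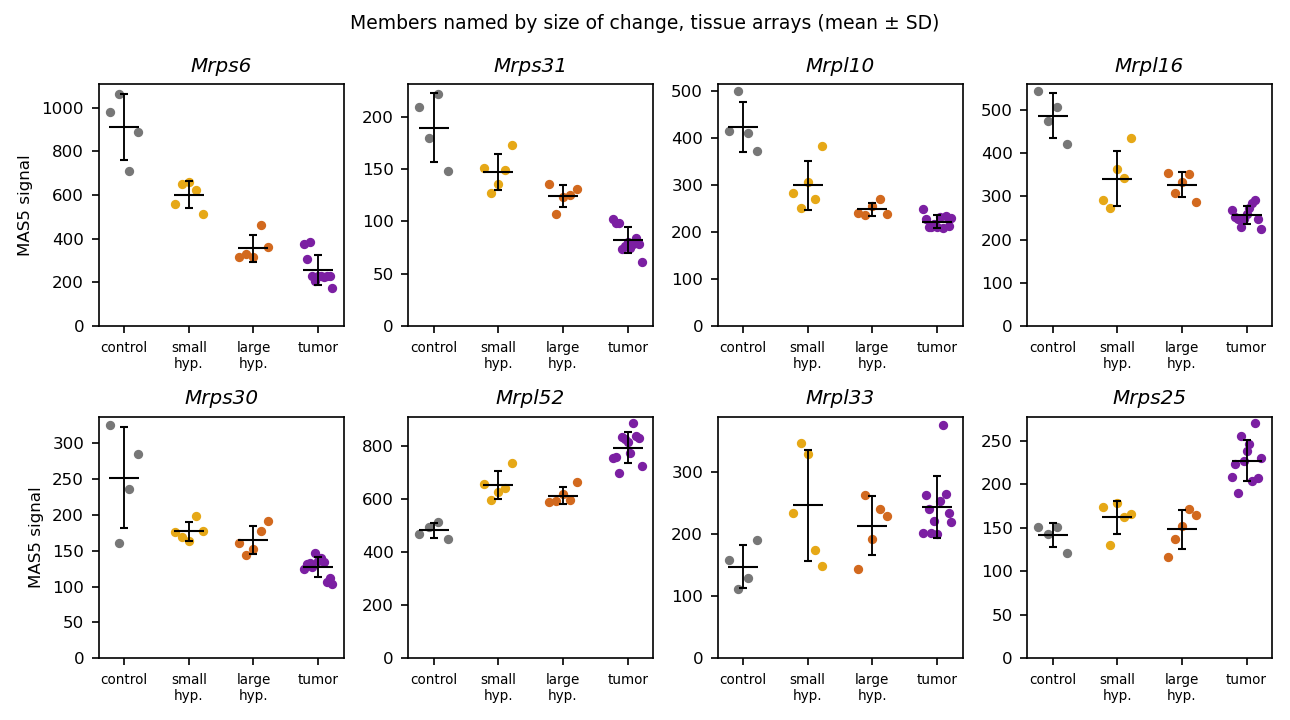
MAS5 signals of 8 members in the 25 tissue arrays, by group; each point is 1 array and bars are the mean ± SD. The 5 members with the largest falls in tumors (Mrps6, Mrps31, Mrpl10, Mrpl16 and Mrps30) lay below the controls in all 11 tumors, and Mrpl52, Mrpl33 and Mrps25 lay above them in all 11.

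Among the members at functional sites, Mrps5 (-0.58), Mrps7 (-0.28), Mrpl3 (-0.25), Mrpl45 (-0.23), Mrps34 (-0.75), Mrps18a (-0.50) and Mrps18b (-0.32) fell in tumors, with limma adjusted p from 1.4e-08 to 0.023. The calls of Mrpl45 and Mrps18b were lost without control tissue 3 (adjusted p = 0.051 and 0.078), and that of Mrpl45 also without control tissue 1 (0.093). Mrpl12 (-0.17), Mrps2 (0.08), Mrps12 (-0.26), Mrps18c (-0.10) and Mrpl41 (-0.17) did not pass the test, with adjusted p from 0.056 to 0.46. Mrps36 fell (-0.37, adjusted p = 0.0038).

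**Figure D4:**
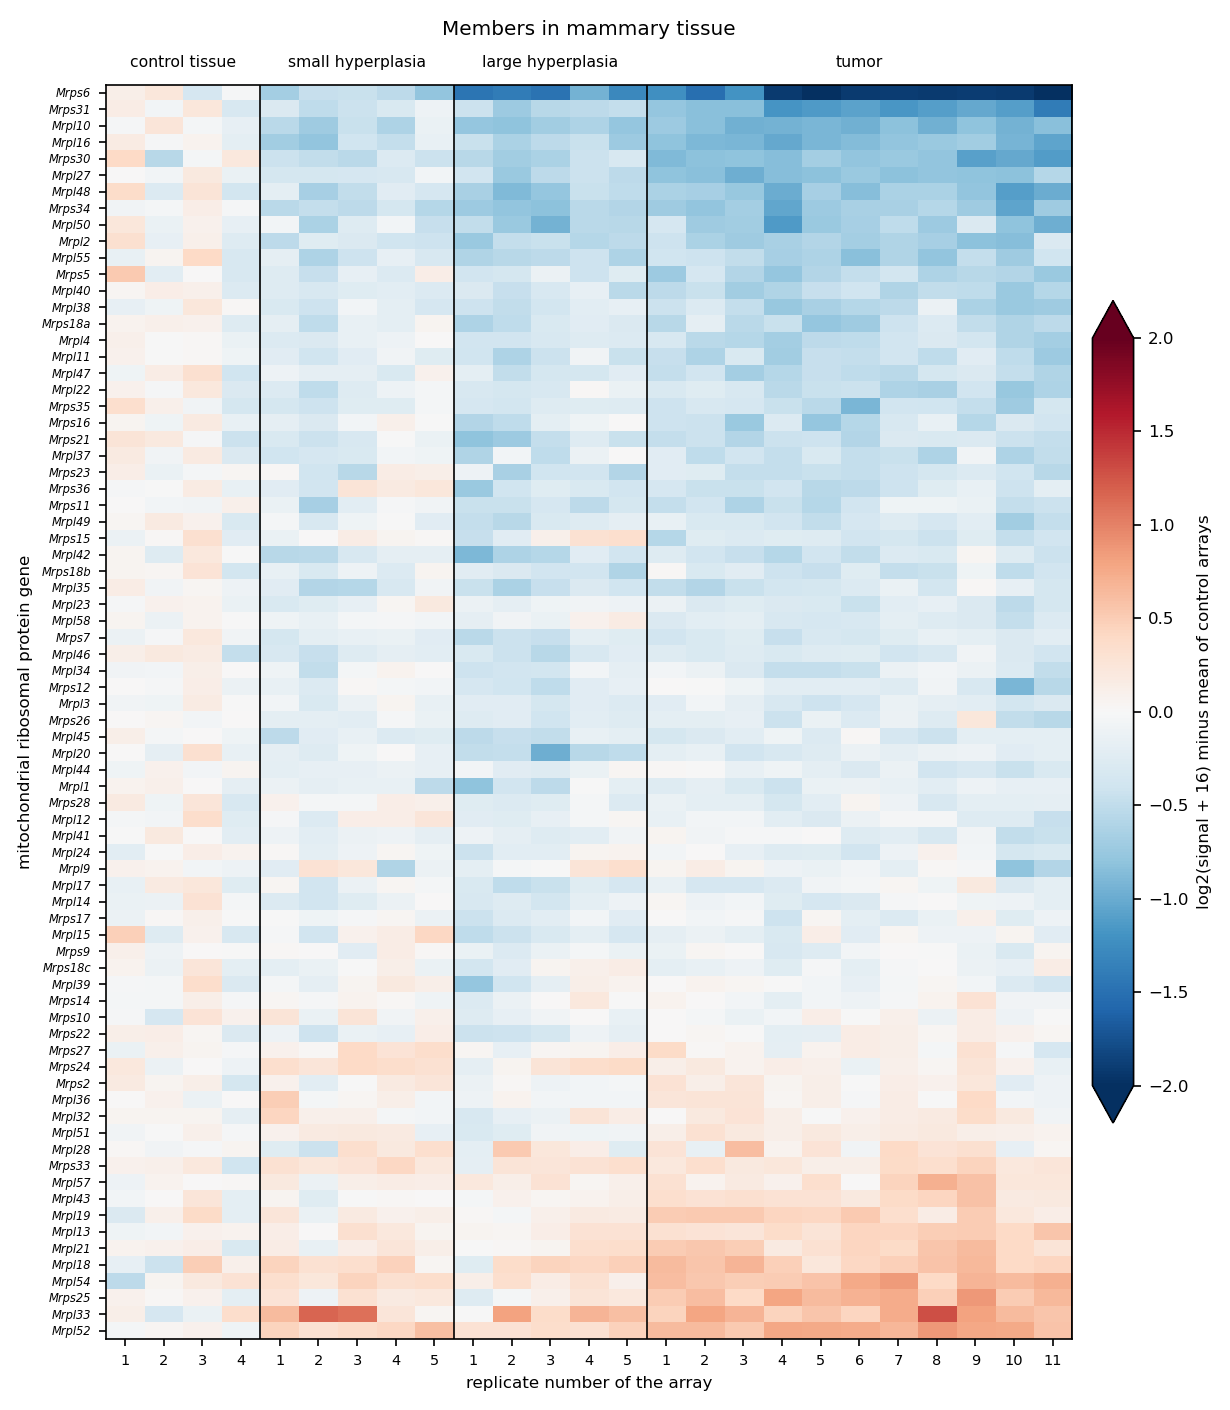
The 76 members in the 25 tissue arrays, ordered by the difference between tumors and control tissue; colour is log2(signal + 16) minus the mean of the control arrays, from blue (lower) to red (higher). Mrps6 (-1.79), at one end, was already blue in hyperplasias, and Mrpl52 (0.70), at the other, was red in all lesions.

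In large hyperplasias 37 members fell and 1 rose, against 22.9% and 26.8% of all 11763 genes tested. The median difference was -0.27 and that of all genes 0.04, and 60 members lay below 0 (46.9% of all genes). The groups did not overlap for 21 members that were lower (19.3%) and 1 that was higher (22.4%). Behind Mrps6 and Mrpl10 (-0.73, limma adjusted p = 1.4e-06), the largest falls were those of Mrps34, a small-subunit protein needed for the stability of that subunit, at 698, 719, 811 and 723 in control tissue and 438, 419, 412, 502 and 483 in large hyperplasias (-0.69 ± 0.10 SE, limma adjusted p = 2.1e-06), of Mrpl50 (-0.65) and of Mrpl48 (-0.65). None of these groups overlapped. The only member that rose was Mrpl52. The member mean level was below 0 in all 5 large hyperplasias (-0.35 to -0.12), against -0.13 to 0.12 in control tissue. Leaving out large hyperplasia 1 raised the number of members called higher to 5, and 27 of the 38 calls held whichever array was left out.

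In small hyperplasias 15 members fell and 5 rose, against 15.3% and 19.3% of all 11594 genes, and the median difference was -0.12 (all genes 0.02), with 51 members below 0 (48.2% of all genes). The groups did not overlap for 5 members that were lower (11.6%) and 3 that were higher (14.7%). These calls were fragile, as 4 of 20 held whichever array was left out: the falls of Mrpl10 (-0.49), Mrpl16 (-0.50) and Mrps34 (-0.49) and the rise of Mrpl52. Without control tissue 1 only 6 members were called lower, and without control tissue 2 only 1 higher. Mrps24, a small-subunit protein with a bacterial homolog, measured 284, 222, 246 and 226 in control tissue and 311, 289, 326, 314 and 305 in small hyperplasias, with no overlap (0.33 ± 0.10 SE, limma adjusted p = 0.02). Its call was lost without control tissue 2 or 4 (highest adjusted p = 0.066). Mrps33 (0.29), Mrpl54 (0.33) and Mrpl33 (0.64) were the other members called higher, and Mrpl45 fell (-0.28) without overlap. Each of these calls was lost when some single arrays were left out, with adjusted p up to 0.27 for Mrps33, 0.25 for Mrpl54, 0.087 for Mrpl33 and 0.11 for Mrpl45.

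The 3 comparisons with control tissue share the same 4 control samples and are not independent of each other. From control tissue through small and large hyperplasias to tumors, the group mean fell at each step for 25 of 76 members (32.9%, against 20.2% of all genes in tissue), rose at each step for 4, Mrpl13, Mrpl21, Mrpl28 and Mrpl57 (16.4% of all genes), and took another order for 47. These are counts of means, with no test.

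Log2 differences between lesions do not use the level of the controls. The control arrays were fitted in the same tissue model, however, so their spread enters the SE and adjusted p of these comparisons. Between tumors and large hyperplasias 11 members were called higher and 12 lower, against 22.7% and 31.9% of all 11747 genes, with a median difference of 0.03 and 33 members below 0 (56% of all genes). The groups did not overlap for 6 members that were higher (9.98%) and 2 that were lower (13.8%). Mrps25 (0.57, limma adjusted p = 1.2e-05), Mrpl54 (0.41), Mrpl20 (0.39), Mrpl52 (0.37) and Mrpl51 (0.31) were higher in all 11 tumors than in all 5 large hyperplasias. Mrps22 (0.32), Mrpl19 (0.30) and Mrpl21 (0.27) were called higher with overlap. Mrps31 (-0.52, adjusted p = 1.1e-04) and Mrpl58, a peptidyl-tRNA hydrolase that rescues stalled ribosomes (282 to 364 against 226 to 280.4, -0.26, adjusted p = 0.0011), were lower with no overlap. Between large and small hyperplasias no member was called higher and 4 were called lower, against 4.1% and 5.55% of all genes, with a median of -0.15 and 66 members below 0 (49.7% of all genes). The groups did not overlap for 5 members that were lower (5.57%) and 0 that were higher (4.99%). The members called lower were Mrps6 (-0.74 ± 0.16 SE, limma adjusted p = 0.007), Mrpl20 (353, 332, 376, 400.3 and 355 against 280.4, 284, 196, 266 and 278, -0.46 ± 0.10 SE, limma adjusted p = 0.0051), Mrps36 (-0.42) and Mrpl51 (-0.25). The calls of Mrps6 and Mrpl20 held whichever array was left out, whereas those of Mrps36 and Mrpl51 did not (adjusted p up to 0.085 and 0.091). At an unadjusted p under 0.05, limma found 0 members higher in large hyperplasias (12.1% of all genes) and 15 lower (12.7%). Every large hyperplasia had less Mrpl20 than every small hyperplasia and every tumor.

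**Figure D5:**
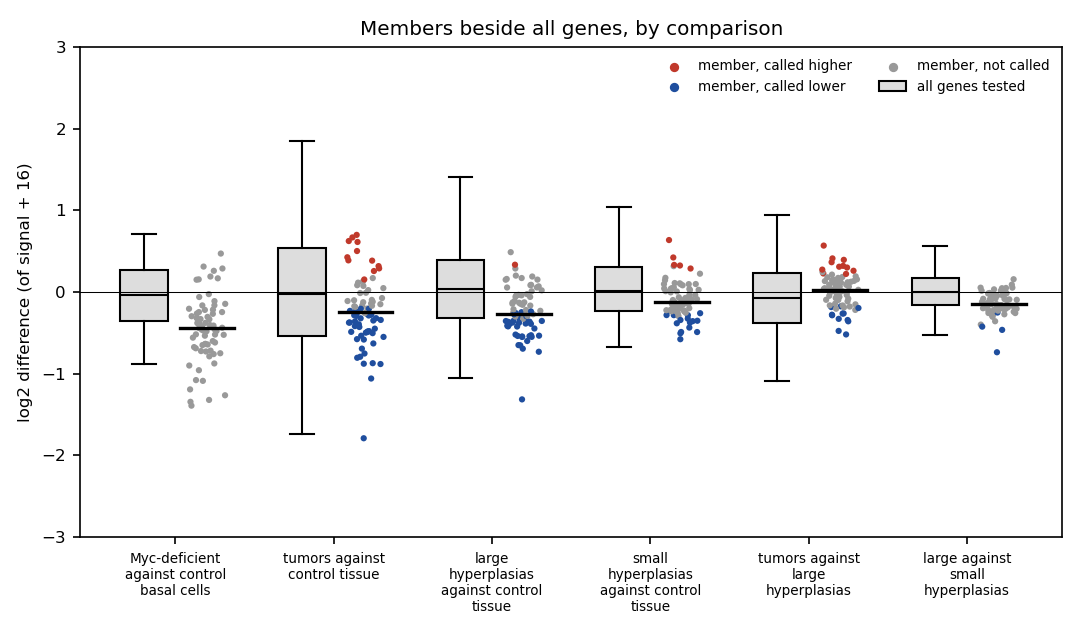
Log2 differences of the members (points) beside those of all genes tested (grey boxes: quartiles, whiskers from the 5th to the 95th percentile) in 6 comparisons; black bars are member medians, and colours mark members called by limma at an adjusted p under 0.05. In Myc-deficient cells the member median was -0.44 and that of all genes -0.03 with no member called, and in tumors 41 members were called lower and 12 higher.

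Probe sets of a gene did not always move together. In tumors against control tissue, 5 members had probe sets called in opposite directions. For Mrpl21 the brighter probe set rose, 0.43 (mean signal 131 against 181, adjusted p = 4.7e-04), and a dim probe set fell, -0.67 (mean signal 58.8 against 30.6, adjusted p = 5.7e-06), in limma. For Mrpl28 a probe set rose by 0.43 (mean signal 159.6 against 219.6, adjusted p = 8.9e-06) while another fell, -0.39 (mean signal 229 against 172, adjusted p = 3.2e-04). For Mrps23 a probe set rose by 0.27 (mean signal 137 against 168, adjusted p = 0.029) and the brightest fell, -0.39 (mean signal 196 against 146, adjusted p = 0.0031). The other members were Mrpl15 and Mrpl51. The brightest probe set of Mrpl51 rose, 0.15 (mean signal 793 against 885, adjusted p = 0.045), and a dim probe set fell, -0.56 (mean signal 47.8 against 26.9, adjusted p = 1.1e-04), and both opposite calls of Mrpl15 came from dim probe sets, 0.45 (mean signal 32.1 against 48.7, adjusted p = 0.026) and -0.64 (mean signal 51.5 against 27.8, adjusted p = 2.2e-05). The same held for Mrps24 in small hyperplasias and for Mrpl15 and Mrpl21 between tumors and large hyperplasias, and the direction of these members depended on the probe set. The loci of 19 members overlap another coding gene.

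Other genes of mitochondrial translation are given beside the shares of all genes called, 36.8% lower and 35% higher in tumors. There 4 of 11 translation factors tested fell and 1 rose. The elongation factor Gfm1 (-0.56, limma adjusted p = 2.3e-06), the initiation factor Mtif2 (-0.65) and Pdf (-0.41) were among those that fell, and the release factor Mtrf1l rose (0.46). Of 14 mitochondrial tRNA synthetases 5 fell and none rose, with Vars2 (-1.30), Fars2 (-1.17) and Lars2 (-0.90) lowest. Of 18 assembly and rRNA modification factors 9 fell and 2 rose, with the assembly GTPase Mtg1 (-1.20) and the rRNA chaperone Eral1 (-0.80) lowest. Of 10 genes of mitochondrial DNA maintenance and transcription 4 fell, with the polymerase subunits Polg2 (-0.80) and Polg (-0.55), and 4 rose, with Mterf1a (0.68) and Ssbp1 (0.66). Of the mitoribosomal proteins with other symbols, Dap3 (-0.32) and Ptcd3 (-0.36) fell. In large hyperplasias these lists had 4, 3, 5, 1 and 1 members that fell and 1, 0, 0, 2 and 0 that rose, in the same order (22.9% and 26.8% of all genes), and in small hyperplasias 1, 1, 3, 0 and 0 fell and 0, 1, 1, 2 and 0 rose (15.3% and 19.3%).

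The makeup of the tissue changed along with the members. All 6 adipocyte markers on the array lay below the control mean in every lesion, with mean levels between -1.30 and -1.06 for small hyperplasias, between -2.22 and -1.60 for large ones and between -7.05 and -4.22 for tumors, relative to the control mean on the log2 scale. The summed signal of these markers was 38935 to 42811 in control tissue and 654 to 6145 in tumors. Within tumors, adipocyte markers were highest in tumors 1 to 3 (-4.65 to -4.22, against -7.05 to -5.28 in the other 8), which were also those with the most Mrps6 (305 to 383). The members as a whole did not share this order. Their mean level was -0.16, -0.18 and -0.21 in tumors 1 to 3, and from -0.33 (tumor 10) to -0.11 (tumor 9) in the other 8. Markers of brown adipocytes, cells rich in mitochondria, had mean levels between -1.37 and 1.32 within the controls, between 0.03 and 1.19 for small hyperplasias and between -2.32 and -0.24 for large ones, and reached at most -1.23 in tumors, where 4 of 4 fell. Between large and small hyperplasias 2 of 4 brown adipocyte markers were called lower in large ones (median difference -1.89), beside the lower member median there. Endothelial markers fell (5 of 5 in tumors, -1.48 to -0.85), basal markers rose (5 of 5, 2.59 to 3.29) and proliferation genes rose (5 of 5, 2.04 to 2.47). Of 6 luminal markers 3 fell (-1.94 to -0.23), leukocyte markers ranged from -0.42 to 0.54 in tumors and from 0.73 to 1.42 in large hyperplasias, and skeletal muscle markers ranged from -0.98 to 3.34 in tumors. The part of these cell types in the member differences was not tested. The signal of Myc in control tissue was 125 to 144. Small hyperplasias had 145 to 297, large ones 188 to 269.9 and tumors 97.0 to 298.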

How the data were processed

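Affymetrix arrays measured RNA in 25 samples of mammary tissue and 6 of sorted basal cells. The deposited intensity values are MAS5 signals, which the authors made from each array with Affymetrix Expression Console, per the submitters' processing notes. Tissue RNA was labelled with an Affymetrix kit and sorted-cell RNA amplified with a Nugen kit. No array was identical to another, the number of arrays limits the precision, and 0 columns of values were left unused. Differences of log2(signal + 16) were fitted with limma 3.58.1 (R 4.3.3, trend) in 2 models, of 6 sorted and 25 tissue arrays, over probe sets with a signal of at least 30 in the median of either group, with Benjamini-Hochberg adjustment over all of them and a threshold of 0.05. Gene names are from the array annotation, and the brightest probe set stood for a gene. The script was tested on simulated data.

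The members and lists were chosen with earlier results of these data known. Named members are, per comparison, up to 5 called in each direction with a median of at least 100 and no overlap, fixed role examples, members with opposite probe sets and members called against the majority. None was called in sorted cells, so the 5 largest differences each way are given there. Sorted pools of the same number deviated together (r = 0.29, 0.323 and 0.398 over 9263 probe sets), which pairs them, and tissue samples did not (-0.227 to 0.162). The pairing comes from this correlation and not from the labels. Alternatives were the block, the filter, the offset, quantile normalization, the probe set, the samples, the methods' t-test and the methods' ratio of medians over 2.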

Additional observations from a re-analysis of the deposited data

Results flagged for a closer look

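For 41 named members and the mean member level, 126 groups of 4 or 5 samples were searched for 1 sample far from the others, and 7 were found, where chance gives about 5% of groups. In control tissue 4, Mrpl21 had a signal of 102 (138 to 144 in the other controls) and Mrps18a a signal of 265 (338 to 347). In small hyperplasia 5 Mrpl1 had a signal of 48.5 (65.6 to 69.5 in the others), and in small hyperplasia 2 Mrpl43 had a signal of 270 (320 to 336). In large hyperplasia 1 Mrpl18 had a signal of 182 (285 to 309) and Mrps33 a signal of 245 (332 to 356), and in large hyperplasia 3 Mrpl20 had a signal of 196 (266 to 284). All 7 lay below the rest of their group.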

How the results depend on the processing

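Of 372 values of the comparisons under alternatives, 324 stayed within a fixed limit on the change of a count or a median. Reversals of direction were not scored for these values. The methods' ratio of medians over 2 gave 17 members lower in Myc-deficient cells (limma called 0), 0 higher and 2 lower in tumors, 0 higher and 1 lower in large hyperplasias, 0 and 0 in small hyperplasias, 0 and 0 between tumors and large hyperplasias, and 0 lower between large and small hyperplasias. By that rule 1914 of all 11831 genes were higher and 1938 lower in tumors. In large hyperplasias 1391 of 11763 were higher and 895 lower, and in small ones 905 of 11594 and 345. Between tumors and large hyperplasias 687 of 11747 were higher and 1087 lower, and between large and small ones 174 of 11594 were lower. Shares over all genes were not counted for the t-test and the settings after it. The methods' t-test, unadjusted, gave 1 higher and 4 lower in Myc-deficient cells, 2 higher in large and 3 higher in small hyperplasias, and 19 lower between large and small hyperplasias. After adjustment it gave 7 higher in tumors, 23 lower in large hyperplasias, 1 higher and 3 lower in small hyperplasias, and 1 lower between large and small hyperplasias. Quantile normalization gave 2 higher in large hyperplasias, and without a filter 3 were higher and 8 lower in small hyperplasias. With only the groups compared, 2 were higher in large hyperplasias, 2 higher and 5 lower in small hyperplasias, and 2 lower between large and small hyperplasias. The causes were not tested. Of 204 values of named members under 4 alternatives, 196 stayed the same, 8 lost their call and 0 reversed. The members named in sorted cells had no call to keep, and counted as the same when they stayed uncalled.

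With the replicate number as a block, 0 members were called in sorted cells, where the numbers pair the pools. In tissue, where samples share only a number, the block gave 9 higher and 35 lower in tumors, 1 and 35 in large hyperplasias, 3 and 12 in small hyperplasias, 7 and 5 between tumors and large hyperplasias, and 0 and 3 between large and small hyperplasias. Shares over all genes were not counted for the block in tissue.

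Leaving out each array in turn, the members called higher and lower were 0 to 0 and 0 to 0 in Myc-deficient cells (median difference -0.70 without Myc-deficient pool 3 to -0.28 without pool 2), 10 to 12 and 34 to 42 in tumors (-0.26 to -0.22), 1 to 5 and 27 to 38 in large hyperplasias (-0.32 to -0.21), 1 to 5 and 6 to 16 in small hyperplasias (-0.14 to -0.07), 10 to 14 and 8 to 13 between tumors and large hyperplasias (0.01 to 0.05), and 0 to 0 and 2 to 6 between large and small hyperplasias (-0.17 to -0.11). The extremes came without control tissue 1 (6 lower in small hyperplasias), control tissue 2 (1 higher there) and large hyperplasia 1 (5 higher in large hyperplasias). The 3 pools per group limit the sorted comparison, in which no gene of the array was called with all pools. Without Myc-deficient pool 3 limma called 7 genes, and without pool 2 it called 1, none of them members.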
